A study of Mus musculus with 4 samples.

Results

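The 4 messenger RNA (mRNA) probes of a mouse microRNA panel, for Actb, B2m, Gapdh and Rpl19, are described here, chosen as the probes with those names among the 618 in the deposited table. All 4 were measured in all 4 samples, 2 liver tumours and 2 normal livers. Per the labels, the mice were NF2fl/fl females given AAV2/8-Cre, an adeno-associated virus carrying Cre recombinase that deletes the floxed Nf2 gene in hepatocytes, or PBS, and livers were inspected 50 weeks later. Nf2 encodes merlin, a tumour suppressor that acts upstream of the Hippo pathway. The labels assign the tumours and the normal tissue to no named animal, do not say that the normal livers came from the PBS mice, and name no promoter for Cre. Whether the spread behind the p-values is biological or technical is therefore not known. The panel holds no Nf2 probe among its 4 mRNA probes, so the deletion itself was not checked here.

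Genes such as these are often called housekeeping genes and used as references, on the assumption that their transcripts vary little between samples. Actb encodes beta-actin, a protein of the cytoskeleton. Rpl19 encodes a protein of the large ribosomal subunit. Gapdh encodes a glycolytic enzyme that also runs in reverse in the glucose synthesis of hepatocytes. B2m encodes the light chain of the class I major histocompatibility complex, which most nucleated cells carry and which interferons induce. The assay was NanoString's nCounter, which counts colour-coded probes one by one. Its positive controls (POS_) are synthetic targets added in known amounts, and its negative controls (NEG_) are probes without a target.

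The deposited values of mRNA and miRNA probes were whole counts multiplied by 1 factor per sample, 0.395 and 0.905 in the tumours and 2.086 and 2.296 in the normal livers. Every such value was whole after division by its factor, within 0.1 count, so the counts could be recovered. The controls were deposited unscaled. Recovered counts over the mouse miRNA probes totalled 239727 and 123818 in the tumours, against 68260 and 62054 in the normal livers. The factors made the geometric mean of the 100 most counted miRNAs equal in all samples (coefficient of variation 2.0e-04 percent), and the mRNA probes were carried along with them. Hepatocyte miRNAs (miR-122, miR-192 and miR-194) were above the negative controls, 3 of 3, in every sample.

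All 4 mRNA probes had more recovered counts in both tumours than in both normal livers. Actb had 1608 and 1651 counts in the tumours, against 356 and 332 in the normal livers. Rpl19 had 1099 and 1103 counts in the tumours, against 175 and 180 in the normal livers. The tumours differed from each other by 1.03-fold and 1.004-fold for these probes. B2m had 3591 and 2377 counts in the tumours, against 874 and 698 in the normal livers. Gapdh had 348 and 212 counts in the tumours, against 147 and 126 in the normal livers. For B2m and Gapdh tumour replicate 1 was 1.51-fold and 1.64-fold above tumour replicate 2. The 95% Poisson intervals of Gapdh, the probe with the fewest counts, were 312 to 387 and 184 to 243 in the tumours, and 124 to 173 and 105 to 150 in the normal livers. These intervals cover counting error only. Every one of these counts was above the mean plus 2 SD of the sample's negative controls, by 8.02-fold at the least, for Gapdh in normal liver replicate 1.

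The tumours' counts over the normal livers' were 6.20-fold for Rpl19, 4.74-fold for Actb, 3.74-fold for B2m and 1.996-fold for Gapdh, as ratios of geometric means. Limma on log2(count + 1) called 3 of the 4 higher, Rpl19 (log2 difference 2.63, SE 0.69, adjusted p = 0.00216), Actb (2.24, SE 0.69, adjusted p = 0.00928) and B2m (1.90, SE 0.69, adjusted p = 0.0269). Gapdh did not pass (0.99, SE 0.69, adjusted p = 0.306). Of all 280 probes fitted, 28.6% were called higher in unscaled counts, and 55.0% had both tumours above both normal livers. The positive controls also had more counts in the tumours, 1.80-fold by their geometric mean, so unscaled counts hold differences in counting as well. The miRNA total was 2.65-fold higher in the tumours, and the inverse of the deposited factor 3.66-fold. The geometric mean of the 4 mRNA probes, 1219 and 979 in the tumours and 299 and 269 in the normal livers, was 3.85-fold higher.

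**Figure D1:**
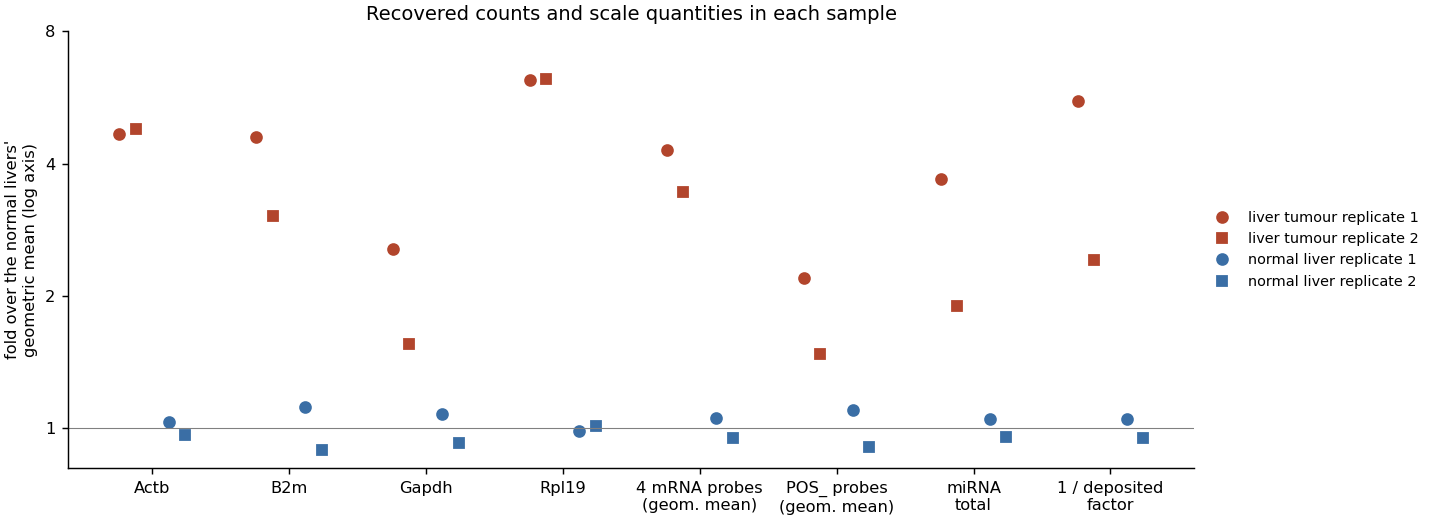
Recovered counts of the 4 mRNA probes and quantities that could set a sample's scale, each divided by the geometric mean of the 2 normal livers (log axis), 1 point per sample. Actb and Rpl19 nearly coincide in the 2 tumours, whereas the positive controls, the miRNA total and the inverse of the deposited factor are higher in tumour replicate 1 than in tumour replicate 2.

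The tumours differed from each other in how these quantities moved. Between tumour replicate 1 and tumour replicate 2 the inverse of the deposited factor differed 2.29-fold and the miRNA total 1.94-fold, whereas the positive controls differed 1.49-fold and the 4 mRNA probes 1.25-fold. Between normal liver replicates 1 and 2 the same quantities differed by 1.10-fold, 1.10-fold, 1.21-fold and 1.11-fold. For Actb and Rpl19 the deposited values of the tumours lay further apart than their recovered counts. Actb differed 2.35-fold between the tumours in deposited values, against 1.03-fold in recovered counts, and Rpl19 2.3-fold against 1.004-fold. Gapdh lay closer, at 1.40-fold in deposited values against 1.64-fold in recovered counts. B2m differed by 1.52-fold in deposited values, with tumour replicate 2 higher, against 1.51-fold in recovered counts, with tumour replicate 1 higher.

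In the deposited values only Gapdh differed between the groups past the test's threshold. Gapdh had 137 and 192 scaled counts in the tumours, against 307 and 289 in the normal livers, with no overlap, as for 63.9% of fitted probes in that direction. It averaged 165 ± 38.5 in the tumours and 298 ± 12.2 in the normal livers (SD, n = 2 each), with a log2 difference, by limma, of -0.87 (SE 0.28, adjusted p = 0.0408). Of the 4 mRNA probes 1 was called lower, where 46.4% of all fitted probes were. Limma called 0 higher, with 0 at an unadjusted p under 0.05, where 7.86% of all fitted probes were called higher. EdgeR on the recovered counts, with its own scaling of each sample, called 3 higher, where 25.4% of all fitted probes were. These results differ in scaling as well as in test.

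Rpl19 had 434 and 998 scaled counts in the tumours, against 365 and 413 in the normal livers. Both tumours were above both normal livers, as for 15.4% of fitted probes, but the tumours lay further from each other than tumour replicate 1 lay from the normal livers. Its log2 difference of 0.76 (SE 0.42, limma adjusted p = 0.166) did not pass. Actb had 635 and 1494 scaled counts in the tumours, on either side of 742 and 762 in the normal livers (log2 difference 0.37, SE 0.43, limma adjusted p = 0.488). B2m had 1419 and 2151 scaled counts in the tumours, also on either side of 1823 and 1603 in the normal livers (0.03, SE 0.31, limma adjusted p = 0.937). The median log2 difference of the 4 probes was 0.20, against -0.90 over the 276 miRNAs in the fit. Gapdh, at -0.87, lay near that of the miRNAs, with 134 of the 276 above it. Above Rpl19, Actb and B2m lay 22, 39 and 63 miRNAs. These ranks depended on background. With the mean of the negative controls subtracted, the miRNA median was -0.46 and that of the 4 probes 0.22. Gapdh, at -0.82, then had 168 of the 276 miRNAs above it, and Rpl19, Actb and B2m had 45, 72 and 101.

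These values changed as single samples were left out. Each such fit leaves 1 sample in a group, so its spread comes from the 2 samples of the other group, and the lone sample is assumed to vary like them. The call of Gapdh was lost without liver tumour replicate 1 (-0.63, limma adjusted p = 0.151), normal liver replicate 1 (-0.83, adjusted p = 0.154) or normal liver replicate 2 (-0.91, adjusted p = 0.143). Its standard error was 0.36 without either normal liver, against 0.28 with all samples. Without liver tumour replicate 1, Rpl19 (1.36, limma adjusted p = 0.0139) and Actb (0.99, adjusted p = 0.04) were called higher, along with 6.07% of fitted probes. Those calls set 1 tumour against the spread of the normal livers, with standard errors of 0.33 for Rpl19 and 0.32 for Actb, against 0.42 and 0.43 with all samples. Without liver tumour replicate 2, Rpl19 stood at 0.16, Actb at -0.24 and B2m at -0.27, none of them called. Without normal liver replicate 2, B2m stood at -0.06.

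**Figure D2:**
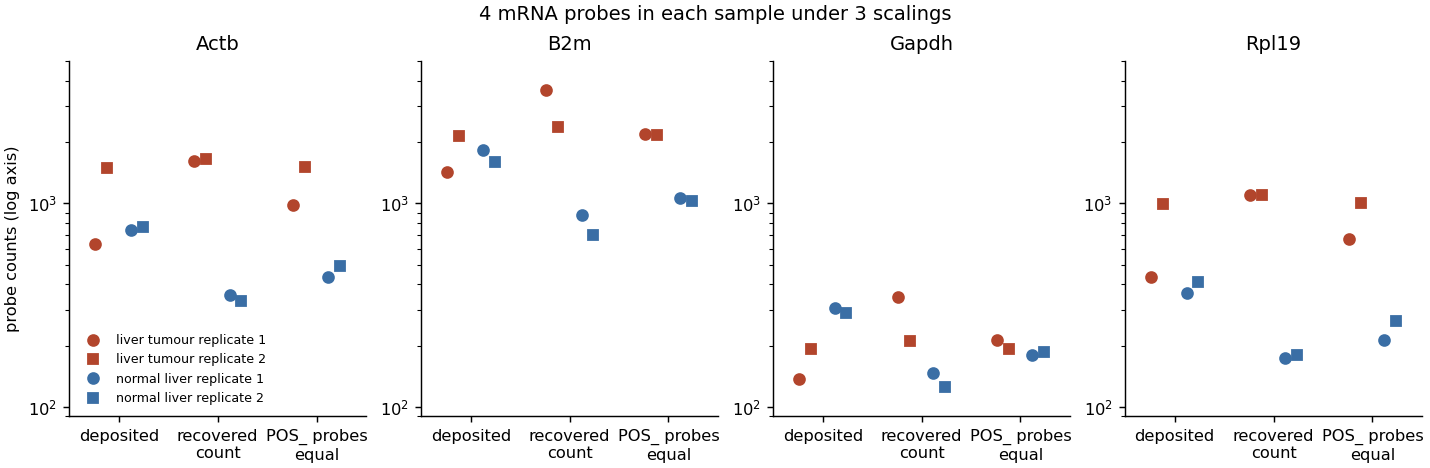
Counts of Actb, B2m, Gapdh and Rpl19 in each sample (log axis), as deposited, as recovered counts, and with the positive controls set equal, tumours left and normal livers right. Gapdh lies lower in both tumours as deposited and higher in both as recovered counts, and Actb and Rpl19 of the tumours separate only after scaling.

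Scaling each sample to the geometric mean of its 6 positive controls put all 4 probes higher in both tumours than in both normal livers, as for 39.3% of fitted probes. Because these controls are added targets, this scaling does not adjust for how much sample RNA was assayed. Rpl19 had 672 and 1003 counts in the tumours, against 213 and 266 in the normal livers, on this scale (log2 difference 1.78, SE 0.49, limma adjusted p = 0.00366). Actb had 983 and 1501 counts in the tumours, against 434 and 490 in the normal livers (1.40, SE 0.49, limma adjusted p = 0.0282). B2m had 2195 and 2161 counts in the tumours, against 1065 and 1031 in the normal livers. The B2m values differed 1.02-fold between the tumours and 1.03-fold between the normal livers, yet the difference of 1.06 (SE 0.49) did not pass (limma adjusted p = 0.102). Limma gave each of the 4 probes the same standard error in this scaling and in unscaled counts, whatever its own spread. Gapdh had 213 and 193 counts in the tumours, against 179 and 186 in the normal livers (0.15, SE 0.49, limma adjusted p = 0.863). Of the 4 probes 2 were called higher, where 17.1% of all fitted probes were. The lowest positive control, POS_F, had 24 and 10 counts in the tumours and 9 and 8 in the normal livers. The negative controls ran from 2 to 17 in the tumours and from 3 to 16 in the normal livers. With POS_A to POS_E as the scale, added after seeing the data, Actb was not called (1.40, limma adjusted p = 0.0539). With POS_A alone it was not called either (1.29, limma adjusted p = 0.1025).

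The positive controls themselves differed in how far they separated the groups. Tumours over normal livers they stood at 1.94-fold for POS_A, 1.96-fold for POS_B, 1.47-fold for POS_C, 2.23-fold for POS_D, 1.497-fold for POS_E and 1.83-fold for POS_F. Against each control in turn, Rpl19 was 2.79-fold to 4.22-fold higher in the tumours, Actb 2.13-fold to 3.23-fold and B2m 1.68-fold to 2.55-fold. Gapdh was at 0.897-fold against POS_D and at 1.02-fold to 1.36-fold against the other controls, so only POS_D put it lower in the tumours. The call of Actb under this scaling was lost without liver tumour replicate 2 (1.09, limma adjusted p = 0.062), normal liver replicate 1 (1.31, adjusted p = 0.316) or normal liver replicate 2 (1.48, adjusted p = 0.263). That of Rpl19 was lost without normal liver replicate 1 (1.62, adjusted p = 0.225) or normal liver replicate 2 (1.94, adjusted p = 0.101). Without either normal liver the standard error was 0.72, against 0.49 with all samples, and the differences stayed near those with all samples.

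Across 8 scalings the 4 probes kept 1 order of log2 differences, Rpl19 highest, then Actb, B2m and Gapdh. A factor per sample moves all probes together, so quantile normalization was the only one of the 8 in which this order could have changed, apart from shifts that the pseudocount or a count model brings. Rpl19 was higher in the tumours in 8 of 8 and called in 6, with log2 differences of 0.54 to 2.63. Actb was higher in 8 and called in 4 (0.37 to 2.24). B2m was higher in 8 and called in 3 (0.03 to 1.90). Gapdh was lower in 6 and higher in 2, called lower in 1 and higher in 0, with log2 differences of -1.01 to 0.99.

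EdgeR's quasi-likelihood test on recovered counts, scaled by TMM (a trimmed mean of log ratios between samples), called Rpl19 (log2 difference 1.67, adjusted p = 0.0069), Actb (1.29, adjusted p = 0.0187) and B2m (0.85, adjusted p = 0.0222) higher and left Gapdh at -0.07 (adjusted p = 0.843). It called 25.4% of fitted probes higher. DESeq2 called the same 3 higher, with 19.3% of fitted probes called higher and Gapdh at -0.03 (adjusted p = 0.958). With equal miRNA medians limma called Rpl19 (1.60, adjusted p = 0.0262), where 21.8% of fitted probes were called higher. With equal miRNA totals it called Rpl19 (1.23, adjusted p = 0.0344), where 12.5% were. Under quantile normalization limma called 0 of the 4 in either direction, with 1, Gapdh, at an unadjusted p under 0.05, and called 5.71% of fitted probes higher and 3.21% lower.

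**Figure D3:**
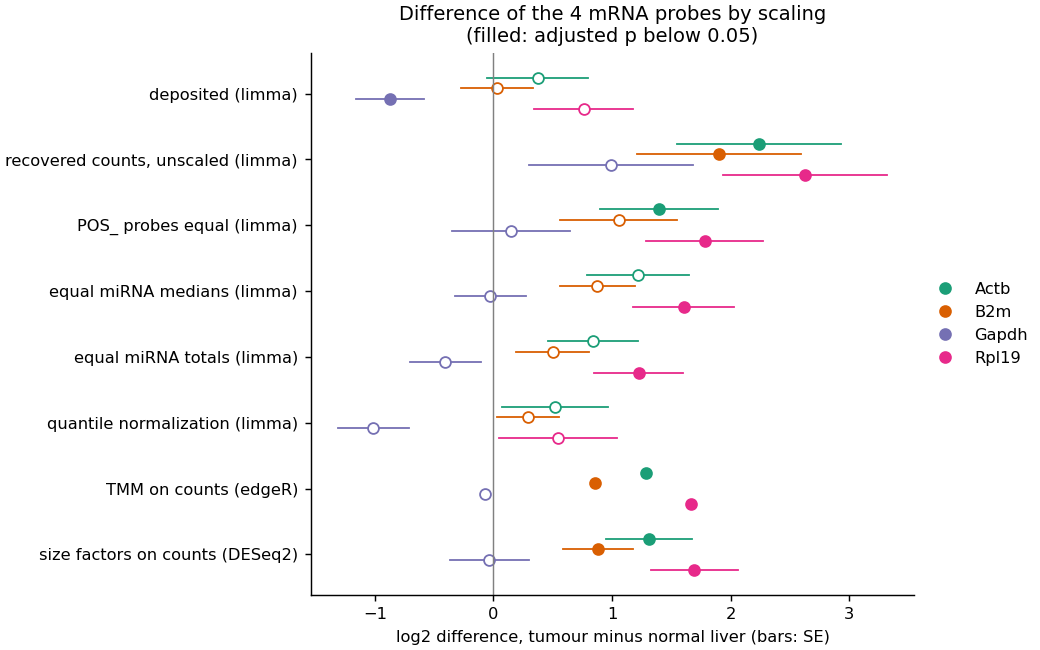
Log2 difference, tumour minus normal liver, of each mRNA probe under 8 scalings, with bars for the standard error (edgeR gives none) and filled points where the adjusted p is below 0.05. Rpl19 lies highest and Gapdh lowest in each scaling, and Gapdh crosses 0.

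Ratios among the 4 probes do not depend on any factor per sample. They were read between samples only, since counts of different probes do not give relative abundance. In 5 of the 6 ratios the tumours and the normal livers did not overlap, where 69.7% of the ratios over all 39060 pairs of fitted probes did not. The 6 ratios share 4 probes and are not independent. With 2 samples a group the exact permutation test cannot give a two-sided p under 0.333, which these 5 reached, or 0.4 when adjusted over the 6 ratios.

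Gapdh over Rpl19 had the largest difference. The ratio was 0.317 and 0.192 in the tumours, against 0.84 and 0.70 in the normal livers, a log2 difference of -1.63 (SE 0.38) or 3.10-fold lower. Actb over Gapdh was 4.62 and 7.79 in the tumours, against 2.42 and 2.63 in the normal livers, a log2 difference of 1.25 (SE 0.38). B2m over Gapdh was 10.3 and 11.2 in the tumours, against 5.95 and 5.54 in the normal livers, a log2 difference of 0.91 (SE 0.08). Gapdh therefore had fewer counts relative to each of the other probes in both tumours than in either normal liver.

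Actb over Rpl19 was 1.46 and 1.497 in the tumours, against 2.03 and 1.84 in the normal livers, a log2 difference of -0.38 (SE 0.07). B2m over Rpl19 was 3.27 and 2.16 in the tumours, against 4.99 and 3.88 in the normal livers (-0.72, SE 0.35). Actb over B2m overlapped, at 0.448 and 0.695 in the tumours, against 0.407 and 0.476 in the normal livers (0.34, SE 0.34, exact permutation p = 0.667), and stood at 0.02 without liver tumour replicate 2. In the tumours the probes thus paired, Actb with Rpl19 and B2m with Gapdh, each pair holding its ratio between the tumours while ratios across the pairs differed. This rests on 1 contrast, of 2 tumours, and the normal livers repeated it only in part. There B2m over Gapdh was also close, at 5.95 and 5.54. However, Actb over Gapdh, at 2.42 and 2.63, was as close as Actb over Rpl19, at 2.03 and 1.84.

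**Figure D4:**
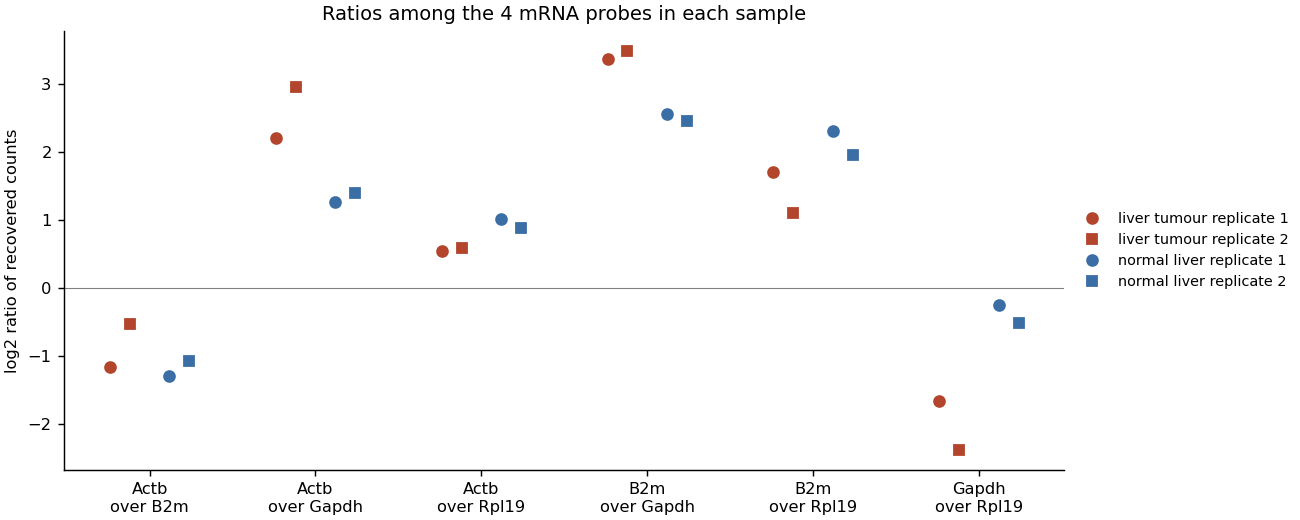
Log2 ratio of recovered counts for the 6 pairs of mRNA probes in each sample, tumours left and normal livers right. The 2 groups overlap only for Actb over B2m, and the tumours are closest to each other for Actb over Rpl19 and B2m over Gapdh.

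Each probe was also tested with the other 3 mRNA probes setting the scale. Gapdh was at -1.26 on the log2 scale (SE 0.60, limma adjusted p = 0.073), with both tumours below both normal livers, as for 66.1% of fitted probes in that scaling. Rpl19 was at 0.92 (SE 0.53, limma adjusted p = 0.166), Actb at 0.40 (SE 0.52, adjusted p = 0.565) and B2m at -0.05 (SE 0.59, adjusted p = 0.964). Limma therefore called 0 of the 4, with 1, Gapdh, at an unadjusted p under 0.05, and edgeR with the same scaling called 0, with 0 at an unadjusted p under 0.05. Of all fitted probes 2.14% were called higher and 44.3% lower when Gapdh was the probe left out of the scale. Gapdh was called lower without liver tumour replicate 1 (-1.52, limma adjusted p = 0.00428) and without liver tumour replicate 2 (-0.99, adjusted p = 0.0403). Both calls set 1 tumour against the spread of the normal livers alone, with a standard error of 0.32. B2m turned to 0.13 without liver tumour replicate 2 and to 0.06 without normal liver replicate 1.

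Markers of other cell types moved between the same samples. Per 10000 miRNA counts, 3 bile duct miRNAs summed to 111 to 135 in the tumours and 10.4 to 12.4 in the normal livers, with 3 of 3 above the negative controls in the tumours and 2 of 3 in the normal livers. Stellate and mesenchymal miRNAs summed to 72.9 to 155 in the tumours and 22.9 to 23.9 in the normal livers, with 3 of 3 and 2 of 3 above the controls. Hepatocyte miRNAs summed to 1479 to 1626 in the tumours and 2046 to 2321 in the normal livers, and erythroid miRNAs to 164 to 182 in the tumours and 91.2 to 110 in the normal livers. Smooth muscle miRNAs summed to 56.9 to 101 in the tumours and 44.3 to 56.3 in the normal livers. Leukocyte miRNAs, of interest beside B2m, overlapped at 69.2 to 91.3 in the tumours and 78.2 to 102 in the normal livers, with 5 of 5 above the controls throughout. Endothelial miRNAs summed to 367.3 to 410 in the tumours and 323 to 367.3 in the normal livers. Of the erythroid miRNAs 3 of 3 were above the controls in both tumours and normal liver replicate 1, and 2 of 3 in normal liver replicate 2. The part of cell makeup in the mRNA values was not tested. In bulk tissue, fewer cells of a type and less RNA per cell cannot be told apart.

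Among the 136 miRNAs above the negative controls in all 4 samples, those closest to each mRNA probe in the pattern of centred log2 recovered counts were taken as the 3 with the smallest root mean square distance over the 4 samples. For Gapdh they were miR-466g, miR-193 and miR-193b, at distances of 0.082, 0.089 and 0.12 against a median of 0.50. Of these, miR-193 had 81 and 58 counts in the tumours, against 39 and 33 in the normal livers. The closest, miR-466g, had 57 and 31 counts in the tumours, against 21 and 18 in the normal livers. It was near the floor in the normal livers, where the mean plus 2 SD of the negative controls was 18.3 and 11.2. For B2m they were miR-20a with miR-20b (1 probe), miR-1935 and miR-99a, at 0.14, 0.15 and 0.19 against a median of 0.50. Rpl19 and Actb had no miRNA as close. For Rpl19 miR-93, miR-532-5p and miR-130a lay at 0.26, 0.37 and 0.37 against a median of 0.79. For Actb miR-1937a with miR-1937b (1 probe), miR-93 and miR-532-5p lay at 0.24, 0.26 and 0.32 against a median of 0.68, and Rpl19 itself lay closer to Actb, at 0.20. In the normal livers miR-93, at 23 and 27 counts, and miR-532-5p, at 22 and 17, were also near the floor.

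When the 4 mRNA probes set the scale in place of the deposited factor, fewer miRNAs were called. Limma called 11 of 276 miRNAs higher and 96 lower in the tumours (3.99% and 34.8%), against 22 higher and 129 lower with the deposited factor. All 11 rises and 92 of the falls were among those called with the deposited factor. The median log2 difference over the miRNAs was -0.96 with the mRNA probes and -0.90 with the deposited factor, while the median standard error was 0.56 and 0.30. Most of the calls depended on background. With the mRNA probes as the scale and background subtracted, limma called 5 miRNAs higher and 9 lower. The median log2 difference was then -0.54 and the median standard error 0.86.

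The mRNA probe chosen as the only reference changed these counts. Rpl19 alone gave 3 higher and 154 lower, at a median log2 difference of -1.61. Actb alone gave 5 higher and 91 lower (median -1.24), and B2m alone 12 higher and 105 lower (median -0.92). Gapdh alone gave 33 higher and 18 lower, at a median of -0.05. Leaving Gapdh out of the 4 gave 6 higher and 124 lower (median -1.26). With all 4 probes as the scale, the counts were 10 higher and 176 lower without liver tumour replicate 1, 33 and 96 without liver tumour replicate 2, 2 and 5 without normal liver replicate 1, and 1 and 1 without normal liver replicate 2.

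**Figure D5:**
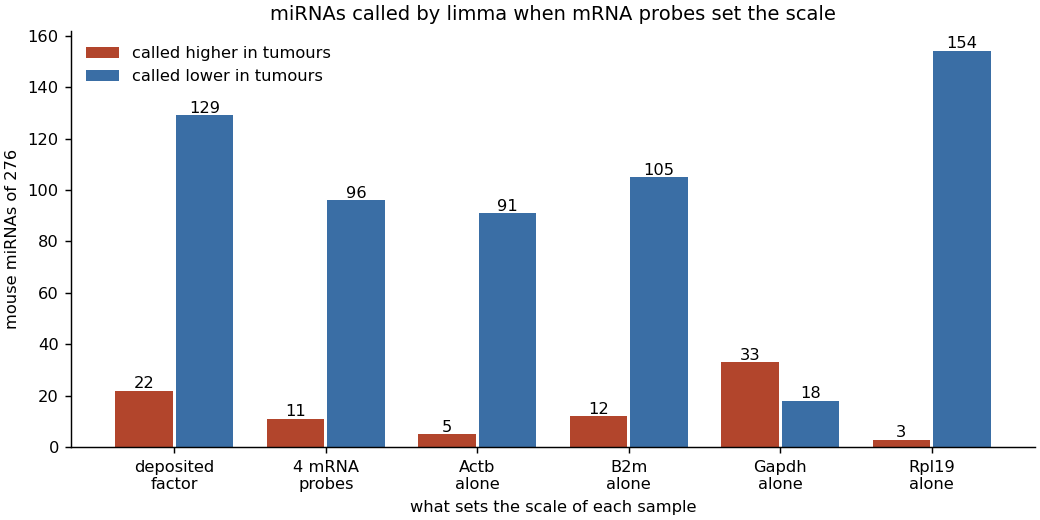
Number of mouse miRNAs, of 276 fitted, that limma called higher or lower in tumours than in normal livers, by what set the scale of each sample. Calls of lower miRNAs outnumber those of higher ones with every scale shown except Gapdh alone, which gives 33 higher and 18 lower. Background is not subtracted.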

How the data were processed

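Total RNA was assayed on NanoString's nCounter miRNA panel, per the labels. The deposited signal is a probe count times 1 factor per sample, applied by the authors; the software is not given in the sources used here. Counts were recovered by finding that factor, and 100% of scaled values were whole within 0.1 count. The fit covered 280 probes: the 276 mouse miRNA probes averaging above 3.93 on the log2(value + 1) scale, a limit set 2 SD over the mean of the scaled NEG_ probes, and the 4 mRNA probes, none of which needed the filter. Tests were two-sided, with limma 3.58.1 (lmFit and eBayes on log2(value + 1)), edgeR 4.0.16 and DESeq2 1.42.0 on recovered counts, R 4.3.3, and Benjamini-Hochberg adjustment over all fitted probes at 0.05. Ratios were tested by exact permutation with scipy 1.17.1. EdgeR with TMM called 71 of the 280 probes higher. The fits and the recovery were tested on simulated data, which cannot show which scaling suits these samples. All 4 members were named, with the 3 nearest miRNAs for each. The members, lists and tests were chosen with earlier results of these data known.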

Additional observations from a re-analysis of the deposited data

How the results depend on the processing

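Calls of the mRNA probes changed with scaling and with single samples left out, with 2 samples a group as the limit on precision; the lowest count stood 8.02-fold over its detection limit. Relative to the deposited values, Gapdh (-0.87) turned to 0.99 in unscaled counts and 0.15 with the positive controls equal, and lost its call with equal miRNA medians (-0.028), equal totals (-0.41), quantile normalization (-1.01), edgeR (-0.067), DESeq2 (-0.035), no filter (-0.87, adjusted p = 0.07) and subtracted background (-0.82). In 2 scalings added after seeing the data, POS_A to POS_E and POS_A alone, it stood at 0.15 and 0.042. Actb became called in unscaled counts (2.24), with positive controls equal (1.40), in edgeR (1.29) and in DESeq2 (1.31). It was not called with POS_A to POS_E (1.40) or POS_A alone (1.29). B2m became called in unscaled counts (1.90), edgeR (0.85) and DESeq2 (0.88). Rpl19 became called in those 4 (2.63, 1.78, 1.67 and 1.70), with equal medians (1.60) and equal totals (1.23), and with POS_A to POS_E (1.79) or POS_A alone (1.67). Limma with the deposited factor called 0 higher and 1 lower, where 7.86% and 46.4% of all fitted probes were. The counts were 3 and 0 in unscaled counts, edgeR and DESeq2, where 28.6%, 25.4% and 19.3% of fitted probes were called higher. They were 2 and 0 with the positive controls equal (17.1% higher), and 1 and 0 with equal medians (21.8%) or equal totals (12.5%). With quantile normalization they were 0 and 0 (5.71% higher, 3.21% lower). They were also 1 and 0 with POS_A to POS_E or POS_A alone, and 0 and 0 with no filter or subtracted background. For these last settings the share of fitted probes is not given here. The cause was not tested.

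Leaving out 1 sample at a time, the differences in deposited values ran from -0.24 to 0.99 for Actb and -1.11 to -0.63 for Gapdh. They ran from -0.27 to 0.33 for B2m (with -0.06 without normal liver replicate 2) and from 0.16 to 1.36 for Rpl19. Under equal positive controls, a set of repeats added after seeing the data, they ran from 1.09 to 1.70 for Actb, 1.03 to 1.08 for B2m, 0.078 to 0.22 for Gapdh (0.12 and 0.18 without normal liver replicates 1 and 2) and 1.49 to 2.07 for Rpl19. Over all settings, adjusted p ran from 0.00245 to 0.702 for Actb, 0.0134 to 0.952 for B2m, 0.0132 to 0.974 for Gapdh and 4.73e-05 to 0.688 for Rpl19. Scaled to the other 3 mRNA probes, Gapdh (-1.26) was called with a pseudocount of 10 (-1.20) and ran from -1.52 to -0.99 with a sample left out, B2m from -0.24 to 0.13, including 0.06, Actb from 0.16 to 0.64 and Rpl19 from 0.70 to 1.13. Adjusted p there ran from 0.00428 to 0.392 for Gapdh and 0.0554 to 0.554 for Rpl19. Every ratio kept its direction with each sample left out, with subtracted background and without a pseudocount. For the 5 ratios whose groups did not overlap, leaving out a sample could not have changed the direction. The log2 difference of Actb over B2m, whose groups overlapped, ran from 0.02 to 0.66 with a sample left out.

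With the 4 mRNA probes as the scale, 11 miRNAs were called higher and 96 lower. These counts were 5 and 9 with subtracted background, 12 and 268 without a filter, 5 and 91 with Actb alone, 33 and 18 with Gapdh alone, 3 and 154 with Rpl19 alone, 6 and 124 without the Gapdh probe, and 1 to 33 and 1 to 176 with a sample left out.

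The labels give both groups replicate numbers 1 and 2, without saying that a number marks a shared animal or day, and same-numbered deviations correlated at 0.04 over 280 probes. With the replicate block Gapdh kept its call (-0.87, adjusted p = 0.0433) and Rpl19 stayed uncalled (0.76, adjusted p = 0.0791), as did Actb (0.37) and B2m (0.03); with the mRNA probes as the scale it gave 11 miRNAs higher and 90 lower.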
